A study of Mus musculus with 12 samples.

Results

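Macrophages without MDA5 but with SAMHD1 were compared with wild-type macrophages in 6 of the 12 RNA-sequencing libraries of the study, taken by their genotype label. These were 3 libraries of MDA5 knockout (MDA5 KO) and 3 of wild type (WT), all made from total RNA of untreated mouse peritoneal macrophages at day 0. Peritoneal macrophages are the resident phagocytes of the abdominal cavity. Neither genotype carried the SAMHD1 deletion that the other 6 libraries share. The labels state no strain, age, knockout allele or way of purifying the cells. Separate mice are not named either, so the 3 libraries of a genotype may be technical repeats and the p-values below measure only the spread between them.

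MDA5, the product of Ifih1, is a cytosolic helicase that binds long double-stranded RNA. Once bound, it signals through the mitochondrial adaptor MAVS to the transcription factors IRF3, IRF7 and NF-kB, which induce type I interferon. Interferon then acts through its receptor, the kinases JAK1 and TYK2 and a complex that holds IRF9, and switches on the interferon-stimulated genes. Resting macrophages keep many of these genes at a basal, so-called tonic, level, and the present comparison asks whether that level differs where MDA5 is missing and SAMHD1 is in place.

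The MDA5 KO libraries held 47795569, 33605499 and 46545165 reads, and the WT libraries 44120812, 39397542 and 33234361. Levels are given as normalised reads, which are whole reads recovered from the deposited values and divided by a size factor for each library. Differences are MDA5 KO minus WT on the authors' stabilised log2 scale, which follows log2 at high read numbers and is compressed at low ones, with limma's standard error after the ± sign. WT 3 stood apart and was not part of the test. In the deposited table its column equals the mean of the other 5 libraries for every gene, after an adjustment by the authors for which the labels give no reason. Its recovered reads also stood apart, among other things by transcript length. In the first of 10 equal groups of genes from the shortest to the longest transcripts, WT 3 lay 1.33 above the other 5 libraries at the median, and in the last its gap was -1.14, on the log2(normalised reads + 1) scale. WT therefore means WT 1 and WT 2 in each test, and the recovered value of WT 3 is given beside them. Wherever WT 3 is put back, differences are of log2(normalised reads + 1) instead, a scale less compressed at low read numbers. MDA5 KO 2 had reads on 705 of 826 olfactory receptor genes, against 93 to 168 in the other 5 libraries.

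**Figure D1:**
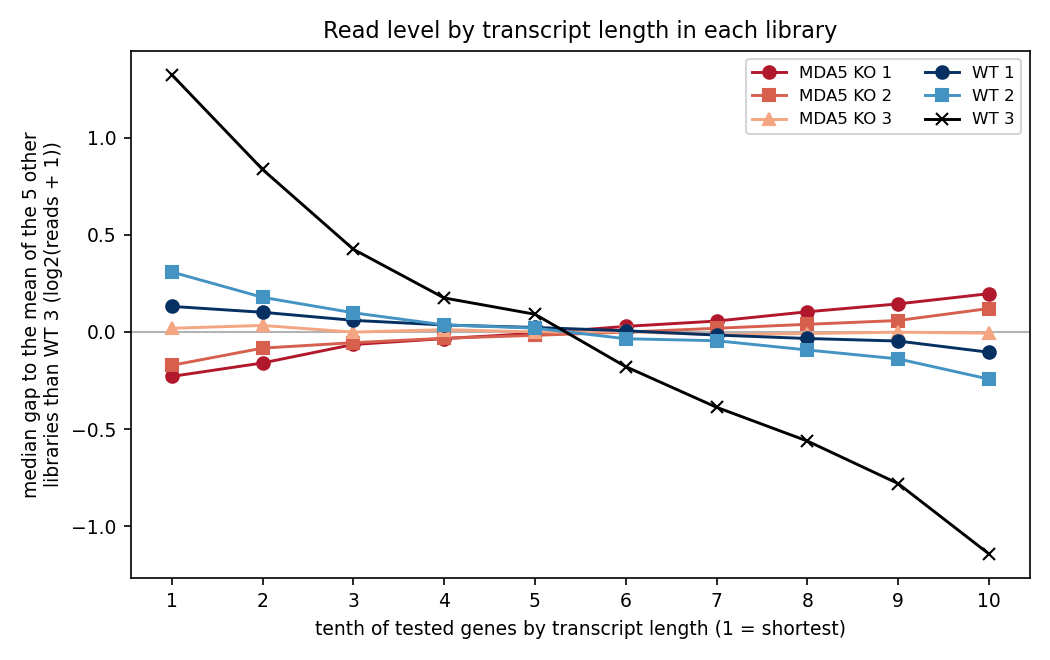
Median gap of each library to the mean of the 5 libraries other than WT 3, in log2(normalised reads + 1), for 10 groups of tested genes ordered by transcript length, shortest on the left. MDA5 KO libraries are red, WT 1 and WT 2 blue and WT 3 black: WT 3 runs from 1.33 to -1.14, and the other 5 libraries stay between -0.24 and 0.31.

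Ifih1 (ENSMUSG00000026896, chromosome 2, 62595798 to 62646255, GRCm38) was all but absent from MDA5 KO. It had 0.826, 18.8 and 0 normalised reads in MDA5 KO, from 1, 16 and 0 reads, against 3208 and 2306 in WT 1 and WT 2 and 778 in WT 3. Every MDA5 KO library lay below every WT library. The mean was 6.56 ± 10.7 (SD, n = 3) in MDA5 KO and 2757 in WT 1 and WT 2 (n = 2), a difference of -5.29 ± 0.26 (limma adjusted p = 0.000141). With the recovered reads of WT 3 put back, on log2(normalised reads + 1), this call was lost (limma adjusted p = 0.281). On that scale it was also lost without WT 3 (difference -9.68, limma adjusted p = 0.0774). Samhd1 (ENSMUSG00000027639, chromosome 2, 157097533 to 157135265), which encodes the deoxynucleotide hydrolase that the study deleted in its other genotypes, had 16858, 14105 and 15247 normalised reads in MDA5 KO, against 16366 and 14788 in WT 1 and WT 2 and 6738 in WT 3. The groups overlapped, and the difference was -0.018 ± 0.13 (adjusted p = 0.959).

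Beyond Ifih1, few genes passed the test. Of 14441 genes with a mean of at least 10 normalised reads, 10 were called by limma with Benjamini-Hochberg adjustment at 0.05, or 0.0692% of the genes tested. Of these, 9 rose in MDA5 KO (0.0623%), and Ifih1 was the 1 gene that fell (0.00692%). Before adjustment, p was under 0.05 for 2373 genes (16.4%), 1140 of them higher (7.89%) and 1233 lower (8.54%). The median difference over all tested genes was 0.014.

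The genes that rose encode channels, proteins of uptake, the cytoskeleton and cell division, and 1 non-coding RNA. Ryr2, a calcium release channel of the endoplasmic reticulum, had 1960.1, 1456 and 1422 normalised reads in MDA5 KO, against 342 and 294 in WT 1 and WT 2 and 70.9 in WT 3, a 5.07-fold ratio of means against WT 1 and WT 2. Its difference of 2.01 ± 0.19 was the largest among the genes called higher (adjusted p = 0.0108). Tpcn2, a cation channel of endosomes and lysosomes, had 1420.1, 1257 and 1259 normalised reads in MDA5 KO, against 489.5 and 452 in WT 1 and WT 2 and 555 in WT 3 (1.29 ± 0.15, adjusted p = 0.0256). All MDA5 KO libraries lay above all WT libraries for both channels.

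Lrp1 is a large endocytic receptor for lipoproteins and protease complexes. It had 116066, 124891 and 108477 normalised reads in MDA5 KO, against 48788 and 37923 in WT 1 and WT 2 and 30594 in WT 3 (1.43 ± 0.15, adjusted p = 0.0191). Itsn1, a scaffold of clathrin-mediated endocytosis, had 27967, 27809.7 and 28907 normalised reads in MDA5 KO, against 15355 and 13794 in WT 1 and WT 2 and 7871 in WT 3 (0.95 ± 0.12, adjusted p = 0.0391). Gas6 encodes a ligand that bridges phosphatidylserine on dead cells to the receptors MERTK and AXL. It had 292, 292 and 243 normalised reads in MDA5 KO, against 41.8 and 58.7 in WT 1 and WT 2 and 126 in WT 3 (1.43 ± 0.18, adjusted p = 0.0391). In these genes too the 3 MDA5 KO libraries lay above the 3 WT libraries, although WT 3 held more Gas6 than the other WT libraries.

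Mki67, the nuclear protein Ki-67 of dividing cells, had 2269, 2133 and 1917 normalised reads in MDA5 KO, against 585 and 688 in WT 1 and WT 2 and 640.3 in WT 3 (1.57 ± 0.15, adjusted p = 0.0108). Kntc1, a kinetochore protein of the mitotic checkpoint, had 289, 345 and 371 normalised reads in MDA5 KO, against 68.4 and 86.1 in WT 1 and WT 2 and 489.6 in WT 3 (1.35 ± 0.17, adjusted p = 0.0391). For Kntc1 the recovered value of WT 3 lay above every MDA5 KO library, whereas for Mki67 all 3 WT libraries lay below MDA5 KO. Nav1, a microtubule-binding protein, had 10158, 9855 and 9067 normalised reads in MDA5 KO, against 5087 and 4499 in WT 1 and WT 2 and 1600.2 in WT 3 (0.9999 ± 0.13, adjusted p = 0.0391). Its exons overlap those of another tested gene on the same strand. Vis1, a short non-coding RNA in the annotation, had 507, 389 and 593 normalised reads in MDA5 KO, against 104 and 112 in WT 1 and WT 2 and 126 in WT 3 (1.53 ± 0.20, adjusted p = 0.0391).

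These calls rest on the libraries at hand. Without MDA5 KO 3 only Ifih1 was called, and without WT 1 or WT 2 the counts were 29 and 10, of which 4 and 2 were among the 10. Without MDA5 KO 1 or MDA5 KO 2 they were 121 and 15. With WT 3 put back limma called 0 genes, with 1558 at an unadjusted p under 0.05. The 9 genes that rose had a median transcript length of 10061 bases, against 3588 over all genes tested. After a smooth trend on transcript length was removed from each library, Kntc1, Nav1 and Itsn1 no longer passed (adjusted p = 0.106, 0.107 and 0.205 by limma), and the other 6 and Ifih1 did.

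**Figure D2:**
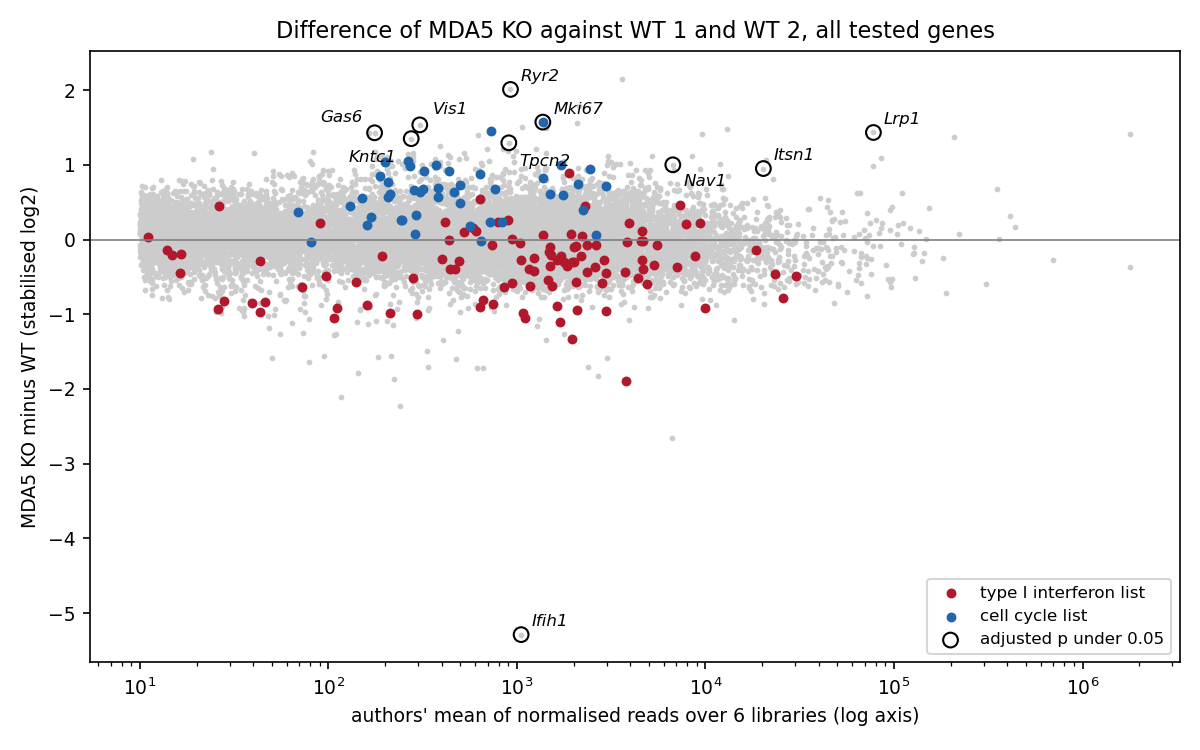
Difference of MDA5 KO minus WT (WT 1 and WT 2, stabilised log2) against the authors' mean of normalised reads over the 6 libraries (log axis), 1 point per tested gene. Type I interferon genes are red, cell cycle genes blue, and the 10 called genes are ringed: Ifih1 lies at -5.29, and most interferon genes lie below 0.

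Among the genes that missed the threshold, 3 stood next in order of p on the higher side. Rnd3, a GTP-binding protein that loosens actin fibres, had 7680.4, 4021 and 6564 normalised reads in MDA5 KO, against 1093 and 1390.3 in WT 1 and WT 2 and 903 in WT 3 (2.15 ± 0.26, adjusted p = 0.0522). Piezo1, a mechanically gated channel, differed by 0.93 ± 0.13 and Abca7, a lipid transporter, by 1.04 ± 0.15. On the lower side Mmp28, a matrix metalloproteinase, had 954, 1044 and 875 normalised reads in MDA5 KO, against 2286 and 1980.3 in WT 1 and WT 2 and 715 in WT 3 (-1.07 ± 0.15, adjusted p = 0.0522). For Mmp28 WT 3 was below MDA5 KO, whereas the 3 genes on the higher side were above all 3 WT libraries in every MDA5 KO library. Fabp4, a fatty acid carrier of macrophages, had 10374, 11541 and 11178 normalised reads in MDA5 KO, against 21894 and 18450.2 in WT 1 and WT 2 and 49284 in WT 3 (-0.86 ± 0.14). The helix-loop-helix inhibitors Id1 and Id2 differed by -1.05 ± 0.19 and -0.77 ± 0.13, with every MDA5 KO library below every WT library in both. G0s2, an inhibitor of triglyceride lipase, had 6.61, 2.36 and 11.3 normalised reads in MDA5 KO, against 66.6 and 66.5 in WT 1 and WT 2 and 153 in WT 3 (-1.01 ± 0.20), low numbers at which the stabilised scale understates the ratio.

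Interferon-stimulated genes had lower levels in MDA5 KO than in WT 1 and WT 2, but none passed limma's test across all genes. The authors' deposited table, which rests on the same libraries, called 16 members of the list below lower and 1 higher. Over all its genes the shares were 1.06% and 1.11%. Of 110 genes on a list of type I interferon targets, 106 were tested. This list, like the others below, was chosen with earlier results of these data known, so its counts are no independent test. Of these, 85 were lower on average and 21 higher, where 48.1% of all tested genes were lower, and the median difference was -0.30 against 0.014 over all genes. Before adjustment, p was under 0.05 for 42 lower members and 2 higher ones, beside 8.54% and 7.89% of all genes. All 3 MDA5 KO libraries lay below both WT 1 and WT 2 for 53 members (19.3% of all genes), and below all 3 WT libraries for 23 (14.8% of all genes). Leaving out single libraries gave list medians from -0.41 (without WT 2) to -0.26 (without WT 1). Averaged over the tested members, log2(normalised reads + 1) was 9.67, 9.34 and 9.81 in MDA5 KO, against 10.12 and 10.11 in WT 1 and WT 2 and 8.97 in WT 3. With WT 3 put back the median was -0.034 and 57 members were lower, where 46.4% of all genes were lower and the median over all genes was 0.063. On the same log2(normalised reads + 1) scale without WT 3, the list had a median of -0.37 and 84 lower members.

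Many interferon-stimulated genes are bound by STAT and IRF factors at an interferon-stimulated response element near the start of transcription. Of 84 tested members with a promoter in the RefSeq table (GRCm38.p6; 250 bases before to 50 after the start), 40 held GAAA, 2 further bases and GAAA on either strand, or 47.62%, against 3.443% of all 32851 promoters and, counted by gene, 3.983% of the tested genes with a promoter. Among members lower in all 3 MDA5 KO libraries than in WT 1 and WT 2, 22 of 42 with a promoter held it, and among the other tested members 18 of 42. A match is only a run of letters in this window. The promoters below belong to 4 of the lower members with the smallest p that held the motif, and the capitals mark it, including overlapping matches and matches that read TTTC, 2 bases and TTTC on the strand shown.
Ifi211, chr1:173912997-173913296 (- strand): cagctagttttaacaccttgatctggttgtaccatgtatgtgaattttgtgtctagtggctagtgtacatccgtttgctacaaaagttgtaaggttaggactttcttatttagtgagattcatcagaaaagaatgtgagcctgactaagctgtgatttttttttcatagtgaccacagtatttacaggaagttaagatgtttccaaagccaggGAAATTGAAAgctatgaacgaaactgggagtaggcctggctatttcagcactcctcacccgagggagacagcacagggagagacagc
Oas1a, chr5:120907476-120907775 (- strand): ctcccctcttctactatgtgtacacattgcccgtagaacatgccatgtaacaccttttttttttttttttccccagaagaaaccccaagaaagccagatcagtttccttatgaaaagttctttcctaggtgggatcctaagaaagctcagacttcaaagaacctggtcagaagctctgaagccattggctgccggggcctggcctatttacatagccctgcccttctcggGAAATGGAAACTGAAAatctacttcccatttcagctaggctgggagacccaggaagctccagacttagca
Ifit1, chr19:34640639-34640938 (+ strand): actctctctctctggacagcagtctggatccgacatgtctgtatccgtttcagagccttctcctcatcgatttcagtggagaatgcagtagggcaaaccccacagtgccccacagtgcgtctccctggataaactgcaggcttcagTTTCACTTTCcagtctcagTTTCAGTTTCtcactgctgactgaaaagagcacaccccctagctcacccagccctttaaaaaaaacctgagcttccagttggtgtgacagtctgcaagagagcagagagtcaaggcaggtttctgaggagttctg
Bst2, chr8:71537423-71537722 (- strand): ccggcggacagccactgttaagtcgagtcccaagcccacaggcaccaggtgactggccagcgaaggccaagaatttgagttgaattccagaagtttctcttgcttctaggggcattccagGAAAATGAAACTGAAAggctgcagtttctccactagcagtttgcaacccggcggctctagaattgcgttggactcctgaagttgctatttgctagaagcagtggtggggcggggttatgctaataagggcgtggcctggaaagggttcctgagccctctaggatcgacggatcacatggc

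These 4 genes encode a DNA-binding protein of the interferon-inducible p200 family (Ifi211), a synthetase of the oligoadenylates that activate RNase L (Oas1a), a protein that binds foreign RNA ends (Ifit1) and tetherin, which holds virions at the cell surface (Bst2). Ifi211 had 845, 596 and 1010.5 normalised reads in MDA5 KO, against 1792 and 1602 in WT 1 and WT 2 and 575 in WT 3 (-0.99 ± 0.20). Oas1a had 1685, 1423 and 2290.2 normalised reads in MDA5 KO, against 4171 and 3018 in WT 1 and WT 2 and 5199.9 in WT 3 (-0.96 ± 0.21). All MDA5 KO libraries were below all WT libraries for Oas1a, whereas WT 3 was the lowest library for Ifi211. Ifit1 had 56.97, 76.6 and 87.1 normalised reads in MDA5 KO, against 248 and 180.0 in WT 1 and WT 2 and 18.04 in WT 3 (-0.91 ± 0.21), so WT 3 was again the lowest. Bst2 had 1964, 1953 and 2336 normalised reads in MDA5 KO, against 3456 and 2922 in WT 1 and WT 2 and 4312 in WT 3 (-0.59 ± 0.14), without overlap. The adjusted p of these 4 genes ran from 0.127 to 0.146.

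Ifi27l2a had the largest difference of the list. It is a small interferon-induced membrane protein, and it had 1647, 899 and 2058 normalised reads in MDA5 KO, against 6406 and 5093 in WT 1 and WT 2 and 6755 in WT 3 (-1.89 ± 0.32, limma adjusted p = 0.122). Rtp4, an interferon-induced receptor transporter protein, had 1055, 754 and 1595 normalised reads in MDA5 KO, against 3080.3 and 2743 in WT 1 and WT 2 and 2485 in WT 3 (-1.33 ± 0.26). Both stayed apart from all 3 WT libraries. Slfn2, a Schlafen protein that keeps myeloid and T cells quiescent in mice, had 7140.4, 6447 and 7482 normalised reads in MDA5 KO, against 12628 and 14130.4 in WT 1 and WT 2 and 11807 in WT 3 (-0.92 ± 0.13), and its adjusted p of 0.0545 was the smallest of the list. Cmpk2, a mitochondrial nucleotide kinase, had 557, 475 and 571 normalised reads in MDA5 KO, against 1027 and 1092 in WT 1 and WT 2 and 737 in WT 3 (-0.86 ± 0.15, adjusted p = 0.0852). These 2 genes also did not overlap between the genotypes.

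Factors of the interferon circuit itself were among the lower members. Irf7, which drives the production of type I interferon after sensing, had 1182, 1076 and 1448 normalised reads in MDA5 KO, against 2726 and 2038 in WT 1 and WT 2 and 1261 in WT 3 (-0.88 ± 0.17, adjusted p = 0.118). WT 3 lay within the MDA5 KO range there. Usp18, which removes ISG15 from proteins and damps the interferon receptor, had 232, 93.1 and 236 normalised reads in MDA5 KO, against 466 and 431 in WT 1 and WT 2 and 318 in WT 3 (-0.99 ± 0.26). Ube2l6, the conjugating enzyme for ISG15, had 708, 809 and 818 normalised reads in MDA5 KO, against 1213 and 1295 in WT 1 and WT 2 and 2209.6 in WT 3 (-0.62 ± 0.13). Nmi, a partner of STAT proteins, had 382, 254 and 517 normalised reads in MDA5 KO, against 758 and 814 in WT 1 and WT 2 and 1093 in WT 3 (-0.90 ± 0.22). For these last 3 genes every MDA5 KO library lay below every WT library.

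The other members named by smallest p were Slfn1, Ly6e, Oasl1, Oasl2, Phf11b, Phf11d, Ifi209 and Helz2. The first 7 were lower, between -1.10 (Oasl2, a homologue of the oligoadenylate synthetases) and -0.57 (Ifi209). Helz2, a helicase that acts as a nuclear receptor coactivator, was higher at 0.89 ± 0.16, with 2328, 2792 and 2711 normalised reads in MDA5 KO, against 1573 and 1159 in WT 1 and WT 2 and 799 in WT 3 (adjusted p = 0.0981). With WT 3 put back Ifi209 turned from -0.57 to 0.14, and the other 19 of the 20 named members kept their sign. Members of the Schlafen, Oas, p200 and Phf11 families have close paralogues, so that reads may have been shared between copies. Exons of Irf7 overlap those of a gene on the opposite strand.

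**Figure D3:**
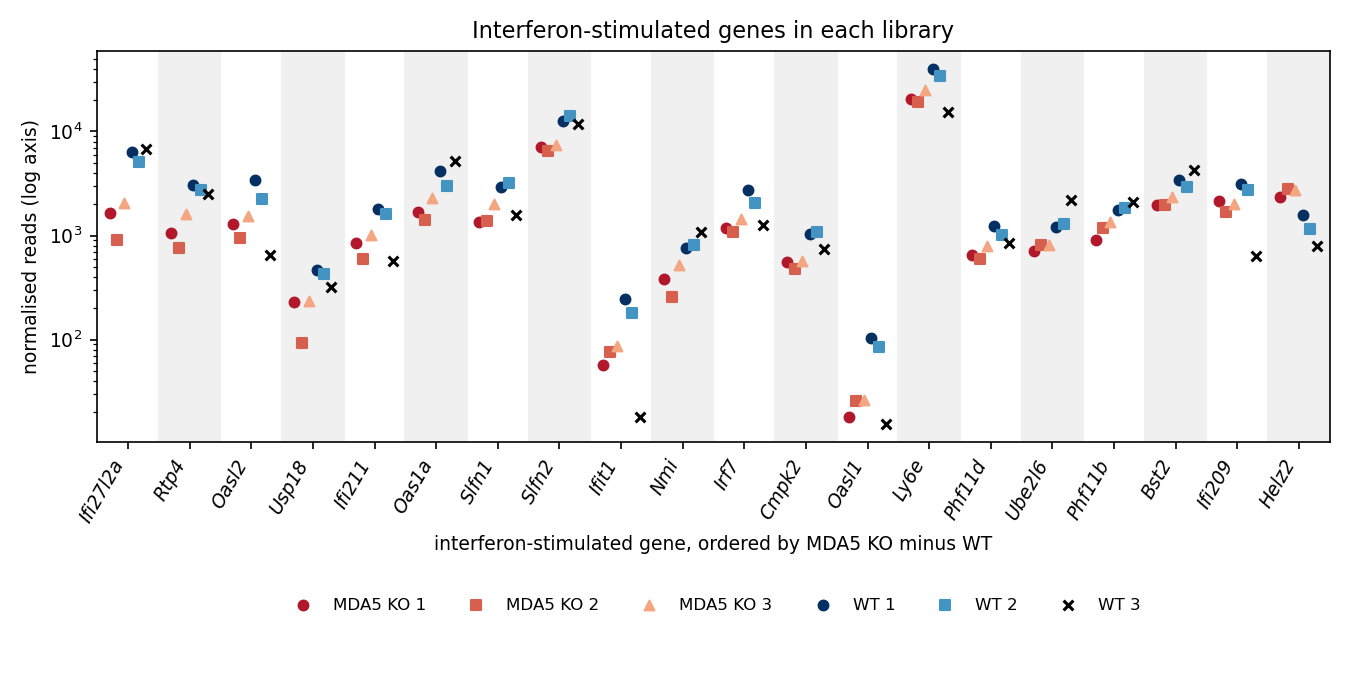
Normalised reads (log axis) of the 20 type I interferon genes with the smallest p in each library, MDA5 KO in red shades to the left of WT in blue and WT 3 as a black cross. For 19 genes every MDA5 KO library lies below WT 1 and WT 2, and for Helz2 above them. The crosses of WT 3 lie below MDA5 KO for several genes, among them Ifit1 at 18.04 normalised reads.

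The interferon list differed between its short and long members, both without WT 3 and with WT 3 put back. A split at the list's median length of 3630 bases, made after the values were seen, gave 53 members on either side. The shorter ones had a median of -0.49 with 46 lower, and with WT 3 put back -0.38 with 40 lower. The longer ones had a median of -0.19 with 39 lower, and with WT 3 put back 0.28 with 17 lower. Averaged over the shorter members, log2(normalised reads + 1) was 9.23, 8.89 and 9.56 in MDA5 KO. It was 9.95 and 10.09 in WT 1 and WT 2 and 9.24 in WT 3, within the MDA5 KO range. Over the longer members it was 10.10, 9.79 and 10.06 in MDA5 KO, 10.30 and 10.13 in WT 1 and WT 2, and 8.69 in WT 3. Over all genes WT 3 is the library with low levels of long genes and high levels of short ones. Its part in the difference was not tested. With the length trend removed from each library, the list had a median of -0.31 and 88 lower members.

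**Figure D4:**
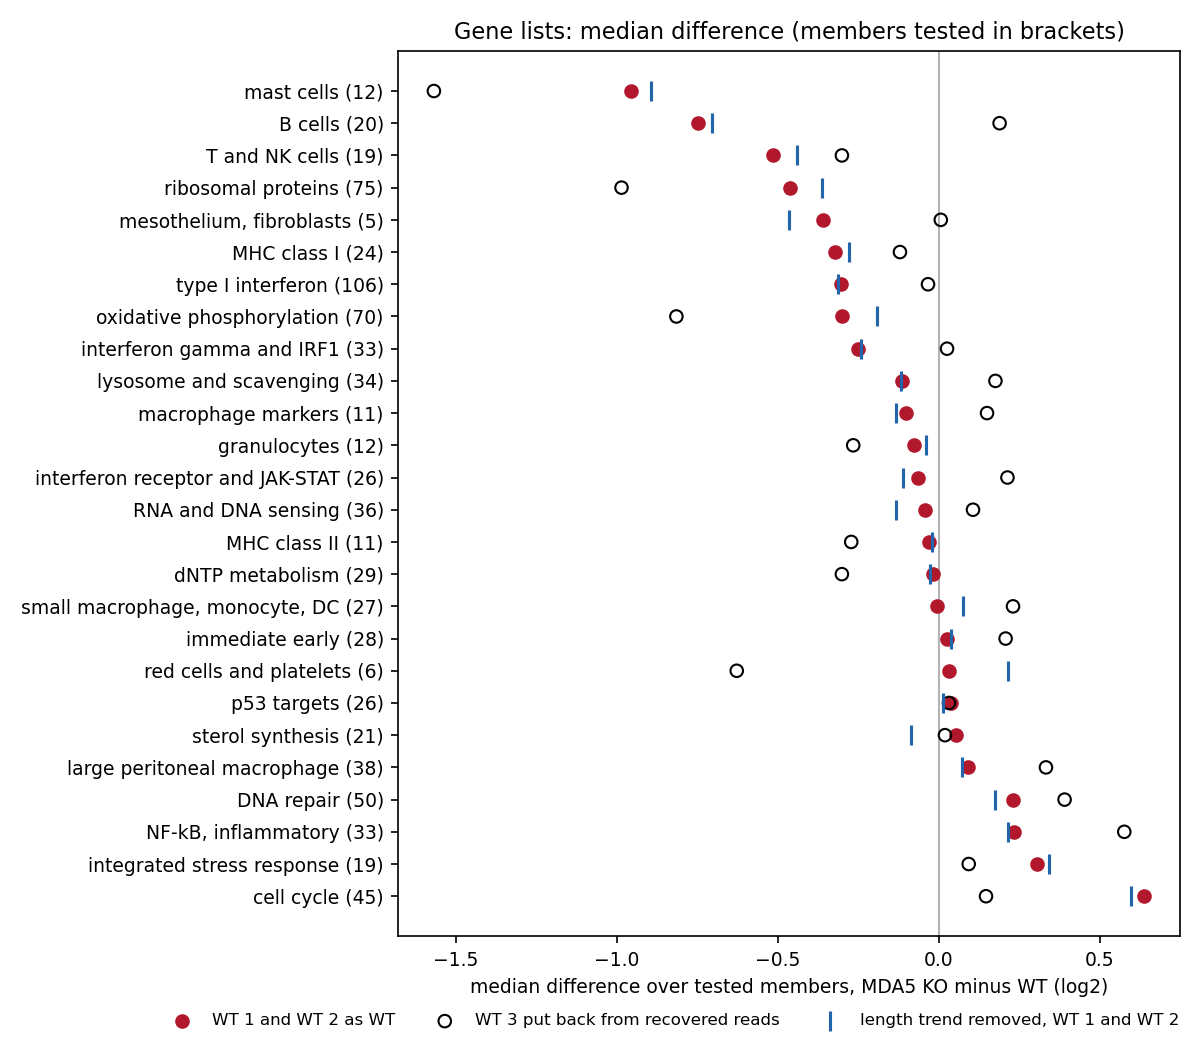
Median difference of MDA5 KO minus WT (log2) over the tested members of each gene list, with the number tested in brackets: with WT 1 and WT 2 as WT (red), with WT 3 put back (open circles) and with the trend on transcript length removed (blue bars). The type I interferon list lies at -0.30 with WT 1 and WT 2 and at -0.034 with WT 3, while ribosomal proteins lie below 0 under all 3. Open circles are on log2(normalised reads + 1), where the interferon list gave -0.37 without WT 3, and the other marks are on the stabilised scale.

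Most genes induced by interferon gamma and IRF1 had lower means in MDA5 KO, and none passed the test. Of 33 tested members 26 were lower (48.1% of all genes), 5 of them at an unadjusted p under 0.05 (8.54% of all genes), and the median was -0.25 (0.025 with WT 3). For 3 members every MDA5 KO library lay below all 3 WT libraries (14.8% of all genes). Ifi47, an immunity-related GTPase, had 772, 861 and 1240.5 normalised reads in MDA5 KO, against 1682 and 1672 in WT 1 and WT 2 and 2086 in WT 3 (-0.77 ± 0.19, adjusted p = 0.146), without overlap. Its relatives Igtp and Irgm1, which act at pathogen vacuoles, differed by -0.54 ± 0.14 and -0.41 ± 0.16.

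MHC class I genes and their peptide loading machinery followed the same direction. Of 24 tested members 19 were lower (48.1% of all genes) and 7 had an unadjusted p under 0.05 (8.54% of all genes), with a median of -0.32 (-0.12 with WT 3) and 0 called. Every MDA5 KO library lay below all 3 WT libraries for 4 members (14.8% of all genes). B2m, the light chain shared by class I molecules, had 56575, 49055 and 70097 normalised reads in MDA5 KO, against 89699 and 83599.7 in WT 1 and WT 2 and 52667 in WT 3 (-0.58 ± 0.17, adjusted p = 0.166). WT 3 lay within the MDA5 KO range for B2m. The class Ib genes H2-T23, the mouse Qa-1 molecule, and H2-T22, a ligand of gamma delta T cells, differed by -0.60 ± 0.16 and -0.59 ± 0.19, and both were below all WT libraries in every MDA5 KO library. H2-T24 was below WT 1 and WT 2 in every MDA5 KO library (-0.55 ± 0.21), but WT 3, at 272 normalised reads, lay below every MDA5 KO library. With that library put back its difference turned to 0.34. MHC class II genes had a median of -0.03, with 7 of 11 lower and 0 at an unadjusted p under 0.05.

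In other parts of the sensing and signalling pathway differences lay in both directions, and none passed the test except that of Ifih1. Among 36 tested genes of cytosolic RNA and DNA sensing, Ifih1 was the 1 call. A further 6 lower and 2 higher members had an unadjusted p under 0.05 (8.54% and 7.89% of all genes). Of the 36 genes, 11 are also on the type I interferon list, among them Irf7 and Oas1a, so the 2 lists are not separate observations. Oas3, another oligoadenylate synthetase, had 659, 788 and 915 normalised reads in MDA5 KO, against 2478 and 1207 in WT 1 and WT 2 and 607 in WT 3 (-1.05 ± 0.28, adjusted p = 0.156). Ikbke, the kinase IKK epsilon that phosphorylates IRF3 and IRF7, had 3074, 2359.6 and 2717 normalised reads in MDA5 KO, against 1534 and 1412 in WT 1 and WT 2 and 794 in WT 3 (0.83 ± 0.15, adjusted p = 0.0981). It was thus above all WT libraries in every MDA5 KO library. Traf3, an adaptor between MAVS and these kinases, differed by 0.56 ± 0.18.

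Of 26 tested genes of the interferon receptors and JAK-STAT signalling, 16 were lower and 10 higher (48.1% and 51.9% of all genes). The median was -0.064 (0.21 with WT 3). At an unadjusted p under 0.05 there were 2 lower and 5 higher members (8.54% and 7.89% of all genes), and 0 were called. The type I interferon list holds 4 of the 26 as well, among them Usp18. Ifnar1, a chain of the type I interferon receptor, had 4832, 4984 and 4685 normalised reads in MDA5 KO, against 4094 and 3456 in WT 1 and WT 2 and 1778 in WT 3 (0.35 ± 0.13, adjusted p = 0.243). Irf9, a DNA-binding factor of the interferon response, had 2842, 2031 and 2799.8 normalised reads in MDA5 KO, against 3353 and 3649 in WT 1 and WT 2 and 3021 in WT 3 (-0.45 ± 0.17, adjusted p = 0.238). Irf2bp2, a corepressor of IRF2, and Stat3 differed by 0.68 ± 0.15 and 0.34 ± 0.14. Ifnar1, Irf2bp2 and Stat3 were above all WT libraries in every MDA5 KO library and Irf9 below them. Among 33 tested inflammatory targets of NF-kB, 25 were higher (51.9% of all genes) and 8 lower, with a median of 0.23 (0.58 with WT 3). Of these, 4 were higher at an unadjusted p under 0.05 (7.89% of all genes), and 0 were called. Nfkbid, a nuclear inhibitor of the NF-kB family, had 319, 257 and 293 normalised reads in MDA5 KO, against 139 and 137 in WT 1 and WT 2 and 16.7 in WT 3 (0.72 ± 0.19, adjusted p = 0.149), and Nlrp3, the inflammasome sensor, differed by 0.55 ± 0.22.

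Cell cycle genes were higher in MDA5 KO than in WT 1 and WT 2. Of 45 tested members 43 were higher (51.9% of all genes), 29 at an unadjusted p under 0.05 (7.89% of all genes), and the median was 0.64. Mki67, given above, was the 1 call, with every MDA5 KO library above every WT library. Top2a, the topoisomerase of chromosome segregation, had 1949, 2085 and 2145 normalised reads in MDA5 KO, against 813 and 1164 in WT 1 and WT 2 and 2085 in WT 3 (0.999 ± 0.16, adjusted p = 0.069). Uhrf1, which carries DNA methylation through replication, had 558, 1171 and 984 normalised reads in MDA5 KO, against 263 and 243 in WT 1 and WT 2 and 1135 in WT 3 (1.45 ± 0.26). Mcm10, a factor of replication initiation, had 209.7, 339 and 301 normalised reads in MDA5 KO, against 88.8 and 91.97 in WT 1 and WT 2 and 161 in WT 3 (1.04 ± 0.20), above all WT libraries. Rrm2, the inducible subunit of ribonucleotide reductase, had 496, 532 and 556 normalised reads in MDA5 KO, against 242 and 239 in WT 1 and WT 2 and 1769 in WT 3 (0.88 ± 0.14, adjusted p = 0.0675), so WT 3 was the highest library. The mean of log2(normalised reads + 1) over the list was 8.69, 8.62 and 8.83 in MDA5 KO, against 7.70 and 8.06 in WT 1 and WT 2 and 9.68 in WT 3. All 3 MDA5 KO libraries lay above WT 1 and WT 2 for 31 members (17.9% of all genes) and above all 3 WT libraries for 7 (13.6% of all genes), and with WT 3 the median was 0.15.

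DNA repair genes had 37 of 50 tested members higher (51.9% of all genes), 16 at an unadjusted p under 0.05 (7.89% of all genes). Their median was 0.23 (0.39 with WT 3), with 0 called. Brca2, a protein of homologous recombination, had 306, 311 and 351 normalised reads in MDA5 KO, against 132 and 104 in WT 1 and WT 2 and 97.9 in WT 3 (0.98 ± 0.18, adjusted p = 0.0981), and Brca1 differed by 1.05 ± 0.20, both without overlap. Chek1, the checkpoint kinase of stalled forks, had 114, 223 and 277 normalised reads in MDA5 KO, against 63.1 and 42.1 in WT 1 and WT 2 and 689 in WT 3 (1.05 ± 0.25), where WT 3 was the highest library. Genes of deoxynucleotide metabolism split evenly, with 14 of 29 higher and 15 lower. Of them 4 and 5 had an unadjusted p under 0.05 (7.89% and 8.54% of all genes). Pnp, which cleaves purine nucleosides, had 4126, 3388 and 4503 normalised reads in MDA5 KO, against 5896 and 6059 in WT 1 and WT 2 and 7244 in WT 3 (-0.57 ± 0.15, adjusted p = 0.149), below all WT libraries.

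Ribosomal protein genes and nuclear genes of oxidative phosphorylation were lower almost without exception, and none was called. Of 75 tested genes of cytosolic ribosomal proteins 73 were lower, 56 at an unadjusted p under 0.05 (8.54% of all genes), with a median of -0.46. For 65 of them every MDA5 KO library lay below all 3 WT libraries (14.8% of all genes). Rps14, of the small subunit, had 23109, 19655 and 24946 normalised reads in MDA5 KO, against 34617 and 47358 in WT 1 and WT 2 and 140333 in WT 3 (-0.85 ± 0.17, adjusted p = 0.127), and Rpl38, of the large subunit, had 282, 206 and 285 normalised reads in MDA5 KO, against 467 and 525 in WT 1 and WT 2 and 1332 in WT 3 (-0.74 ± 0.16). In both genes WT 3 was the highest library. Of 70 tested genes of oxidative phosphorylation 68 were lower, 32 at an unadjusted p under 0.05 (8.54% of all genes), with a median of -0.30. Uqcrh of complex III differed by -0.79 ± 0.18 and Cox4i1 of complex IV by -0.59 ± 0.14, without overlap. The transcripts of both lists are short, with median lengths of 1726 and 1688 bases. Over all genes the median difference ran from -0.19 in the group with the shortest transcripts to 0.26 in that with the longest. With the length trend removed the medians of the 2 lists were -0.36 and -0.19, and with WT 3 put back they were -0.99 and -0.82.

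The cells carried the markers of large peritoneal macrophages in both genotypes. Gata6, the transcription factor of these cells, had 6391, 7187 and 6296 normalised reads in MDA5 KO, against 6650.2 and 6709 in WT 1 and WT 2 and 4673 in WT 3, and none of the 5 defining markers of macrophages or of large peritoneal macrophages was at 0 in any of the 6 libraries. Adgre1, the macrophage antigen F4/80, differed by -0.29 ± 0.15, Itgam, an integrin chain of phagocytes, by 0.52 ± 0.15 and Csf1r, the receptor for macrophage colony-stimulating factor, by 0.35 ± 0.14. Lyz2, which encodes lysozyme, had 1917207, 1743547 and 1954603 normalised reads in MDA5 KO, against 2192448 and 2648726 in WT 1 and WT 2 and 205941 in WT 3 (-0.37 ± 0.16), so that WT 3 had 8.51% of the mean of WT 1 and WT 2. Over 38 tested identity genes of large peritoneal macrophages the median was 0.09, with 22 higher and 16 lower. Of these, 9 higher and 4 lower had an unadjusted p under 0.05 (7.89% and 8.54% of all genes). For 9 of the higher and 2 of the lower members the 3 MDA5 KO libraries lay apart from all WT libraries (13.6% and 14.8% of all genes). Icam2, an adhesion molecule and marker of these cells, had 24195, 24249.7 and 27957 normalised reads in MDA5 KO, against 32522 and 35107 in WT 1 and WT 2 and 52685 in WT 3 (-0.41 ± 0.13, adjusted p = 0.198), below all WT libraries. Thbs1, or thrombospondin, had 318395, 260914 and 286704 normalised reads in MDA5 KO, against 141584 and 87650.4 in WT 1 and WT 2 and 147255 in WT 3 (1.37 ± 0.21, adjusted p = 0.0675). Fn1, or fibronectin, had 2074140.5, 3025868 and 2653681 normalised reads in MDA5 KO, against 1164689 and 789009.8 in WT 1 and WT 2 and 1040601 in WT 3 (1.41 ± 0.22, adjusted p = 0.0675). F5, a clotting factor, differed by 1.09 ± 0.18, Prg4, or lubricin, by 0.68 ± 0.17, and Padi4, a peptidyl arginine deiminase, by 0.62 ± 0.15. All 5 of these last genes were above all WT libraries in every MDA5 KO library, and none passed the test.

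Uptake and lysosomal genes were mixed. Of 34 tested members 22 were lower and 12 higher, with a median of -0.12 and Gas6 as the 1 call. In either direction 5 had an unadjusted p under 0.05 (8.54% of all genes lower and 7.89% higher). Npc2, a lysosomal cholesterol carrier, had 36027, 32203 and 37777 normalised reads in MDA5 KO, against 50419.7 and 54814 in WT 1 and WT 2 and 60979.8 in WT 3 (-0.57 ± 0.14, adjusted p = 0.143), and Marco, a scavenger receptor, had 24678, 18607 and 25519 normalised reads in MDA5 KO, against 13501 and 18052 in WT 1 and WT 2 and 6536 in WT 3 (0.54 ± 0.18, adjusted p = 0.206). Both kept the 3 MDA5 KO libraries apart from all WT libraries, in opposite directions.

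Markers of B cells and mast cells summed highest in WT 2. In bulk RNA, fewer cells of a type and less RNA per cell cannot be told apart. B cell markers were lower in 18 of 20 tested members, with a median of -0.75 and 0 at an unadjusted p under 0.05. Their 23 listed genes summed to 3855, 3832 and 4375 normalised reads in MDA5 KO, against 3154, 20129 and 1506 in WT 1 to 3. Without WT 2 the median of the list was 0.46. Mast cell markers were lower in 12 of 12 tested members, with a median of -0.96 and 0 at an unadjusted p under 0.05. Their sums were 2683, 2781 and 4302 in MDA5 KO, against 4525, 14796 and 3591 in WT 1 to 3, and without WT 2 the median was 0.29. The defining mast cell marker Tpsab1 was at 0 in every library but WT 2.

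T and NK cell markers had a median of -0.52 over 19 tested members, or 0.15 without WT 2. Of these members 15 were lower and 4 higher, with 1 in either direction at an unadjusted p under 0.05 (8.54% of all genes lower and 7.89% higher). Icos, a costimulatory receptor of activated T cells, was above all WT libraries, with 106, 120.2 and 102 normalised reads in MDA5 KO, against 14.2 and 48.9 in WT 1 and WT 2 and 5.15 in WT 3 (0.86 ± 0.24, adjusted p = 0.162). Lat, an adaptor of the T cell receptor, was below all WT libraries, with 3.30, 0 and 2.61 normalised reads in MDA5 KO, against 7.996 and 44.03 in WT 1 and WT 2 and 11.6 in WT 3 (-0.66 ± 0.29, adjusted p = 0.298). Zap70, a kinase of the same receptor, differed by -0.93 ± 0.42. Genes of small peritoneal macrophages, monocytes and dendritic cells had a median of -0.006 over 27 tested members, 0.49 without WT 2 and -0.59 without WT 1, with 13 higher and 14 lower. Lyve1, a hyaluronan receptor of tissue macrophages, had 3341, 3217 and 3662 normalised reads in MDA5 KO, against 2115 and 1851 in WT 1 and WT 2 and 1737 in WT 3 (0.75 ± 0.13, adjusted p = 0.0936). Mrc1, the mannose receptor CD206, had 3553, 2089.8 and 4317 normalised reads in MDA5 KO, against 614 and 1622 in WT 1 and WT 2 and 318 in WT 3 (1.56 ± 0.46), and both were above all WT libraries. Ly6c2, a marker of inflammatory monocytes, was below all WT libraries, with 0, 0 and 21.8 normalised reads in MDA5 KO, against 27.5 and 64.6 in WT 1 and WT 2 and 42.5 in WT 3 (-0.93 ± 0.32, adjusted p = 0.208), and Plac8 differed by -1.87 ± 0.73. Granulocyte, red cell and platelet, and mesothelial and fibroblast lists had 12, 6 and 5 tested members, with medians of -0.079, 0.032 and -0.36 and 0 called. All 5 defining mesothelial markers were at 0 in MDA5 KO 1 and MDA5 KO 3. The part of these cells in the results above was not tested.

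**Figure D5:**
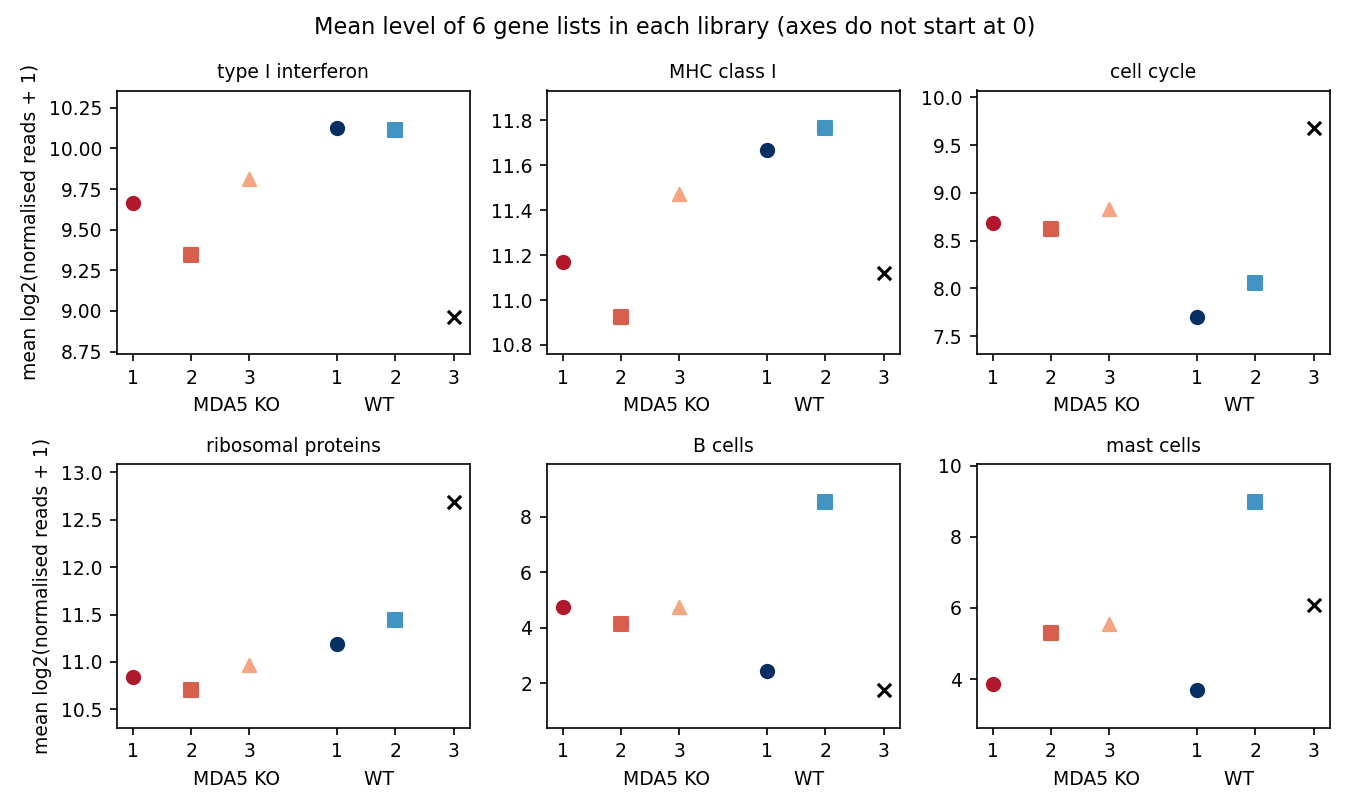
Mean log2(normalised reads + 1) over the tested members of 6 gene lists in each library, MDA5 KO 1 to 3 to the left of WT 1 to 3, on axes that do not start at 0. WT 3 lies lowest for the type I interferon list at 8.97 and highest for the cell cycle at 9.68, and WT 2 lies highest for B cells at 8.54 and mast cells at 8.99.

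No gene of the remaining lists was called. Targets of p53, immediate early genes and genes of sterol synthesis had medians of 0.038, 0.024 and 0.054 over 26, 28 and 21 tested members, and genes of the integrated stress response 0.30 over 19. At an unadjusted p under 0.05 these lists held 6, 2, 1 and 3 genes in either direction, beside 16.4% of all genes.

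Genes beside Ifih1 were examined because the chromosome around a targeted gene can come from the line in which the knockout was made. Within 5 Mb of Ifih1 31 other genes were tested, of which 0 were called, 19 were lower and 12 higher, with a median of -0.06. Of these, 2 lower and 3 higher genes had an unadjusted p under 0.05, where 8.54% and 7.89% of all genes did, so their number lay near that over all genes. Gca, or grancalcin, a calcium-binding protein of phagocytes, starts 18030 bases from Ifih1. It had 565, 421 and 482 normalised reads in MDA5 KO, against 1055 and 959.8 in WT 1 and WT 2 and 911 in WT 3 (-0.91 ± 0.16, adjusted p = 0.0859), below all WT libraries. Its exons overlap those of a gene on the opposite strand. Cytip, an adaptor of leukocyte adhesion, had 2607, 2821 and 2584 normalised reads in MDA5 KO, against 4033 and 4257 in WT 1 and WT 2 and 4447 in WT 3 (-0.61 ± 0.12, adjusted p = 0.122), and the chromatin protein Baz2b had 3659, 3353 and 2922 normalised reads in MDA5 KO, against 2338 and 2018 in WT 1 and WT 2 and 716 in WT 3 (0.58 ± 0.15). Cytip was below and Baz2b above all WT libraries in every MDA5 KO library.

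In the authors' deposited table, which rests on shrunken fold changes, 347 genes were higher in MDA5 KO at an adjusted p under 0.05 (1.11% of 31391) and 334 lower (1.06%). On the type I interferon list 1 was higher and 16 lower there. Ifih1 itself had a log2 fold change of -0.26 in the authors' deposited table and was not called there (adjusted p = 0.328). All 1626 tested genes with a difference above 0.5 in size had the same sign in the authors' deposited table. Both rest on the same libraries, so the shared sign is no separate evidence.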

How the data were processed

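Total RNA of untreated peritoneal macrophages was sequenced by the authors. Per the submitters' processing notes, DESeq2, Salmon, STAR and R 4.1.2 were used on GRCm38 and mm10, whereas the labels' protocol gives an alignment with pBWA 0.5.9-r32-MPI-patch2 and reads per exon from bedtools 2.16.2, summed over genes of Ensembl Gene 61. Which of these made the tables is not given in the sources used here. The deposited library columns hold log2 values. The values themselves show variance-stabilised reads, scaled separately in 6 tables of 6 libraries, with 1 further step. In each table, those of WT 3, SAMHD1 KO 2 and SAMHD1 MDA5 DKO 3 that it holds formed 1 set and its other libraries another. For every gene both sets had been shifted, in opposite directions, until their means were equal. In the table of MDA5 KO and WT, WT 3 was the only library of its set. The mean column, as deposited, is a signal: reads over size factor, averaged across 6 libraries. The authors' deposited log2 fold changes are shrunken, with a p-value and an adjusted p-value for each. Their test statistic, a score per the file headers, was not used.

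limma 3.58.1 in R 4.3.3, with a variance trend and robust moderation, was fitted to the deposited log2 columns of MDA5 KO 1 to 3 and WT 1 and WT 2, over 14441 genes with a deposited mean of at least 10, with Benjamini-Hochberg adjustment over all of them at 0.05. A difference of means that includes the WT 3 column is exactly 0.8 times the one used, for every gene. Whole reads were solved from the stabilised values, size factors and means. Within 0.05 reads, 100% of genes in each table came out whole, and 0 genes disagreed between tables in any library. Since the authors deposited no such column, no count model was used. They serve for levels and for the alternatives with log2(normalised reads + 1). The fit and the solving of reads were tested on simulated data. The labels name no molecular identifiers, so reads are not independent molecules.

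The 26 gene lists and the members were chosen with earlier results of these data known. Some genes are on more than 1 list. The type I interferon list shares 3 tested members with that of interferon gamma and IRF1 and 1 with MHC class I. The cell cycle list shares 4 with that of deoxynucleotide metabolism. Genes were named by rule: Ifih1 and Samhd1, 12 genes in each direction by difference among called genes with a mean of at least 50 and then by p, up to 6 members of each list (20 of the type I interferon list) by p, and up to 4 within 5 Mb of Ifih1. Gata6 and Tpsab1 are named in addition as defining markers, after their values were seen. Genes on an X or Y chromosome or the mitochondrial one are not in the table analysed. Transcript lengths and positions are those of the files. GENCODE M21 served for exon overlaps (17 of 89 genes named share exon bases with another tested gene, and no label says whether counting used strand) and RefSeq (GRCm38.p6) for promoters. Among the 17, Ifi47, Igtp, Irf9, Itgam, Nav1 and Pnp share exon bases with a gene on the same strand.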

Additional observations from a re-analysis of the deposited data

How the results depend on the processing

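The number of genes called depended on the setting, and the difference of Ifih1 kept its sign under all 21. limma called 0 genes with WT 3 put back from recovered reads (1558 at an unadjusted p under 0.05), 0 with all 12 libraries in 1 fit (3251) and 0 with the 6 deposited columns as they stand (1980), and 3 with 11 libraries without WT 3. It called 36, 26 and 27 on log2(normalised reads + 1), + 5 and + 0.5, 16 with TMM scaling, 1 with no filter, 35 with a mean of at least 50, 1 with no variance trend, 5 with no robust moderation and 288 with array quality weights. Removing the length trend, chosen after seeing the data, left 7. Leaving out 1 library gave 1 (without MDA5 KO 3) to 121 (without MDA5 KO 1). Where a single WT library was left, its spread was taken to be that of MDA5 KO.

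Ifih1 differed by -9.08 with WT 3 put back (adjusted p = 0.281), -9.12 with 12 libraries (0.0508), -4.23 with the 6 deposited columns (0.336), -9.68 on log2(normalised reads + 1) (0.0774), -10.2 with + 0.5 (0.113) and -9.76 with TMM scaling (0.0827). It passed under the other settings, at -5.53 to -5.06 when a library was left out. The median of the type I interferon list was -0.034 with WT 3 put back and -0.032 with 12 libraries, and -0.26 to -0.41 when a library was left out. The values with WT 3 put back and with 12 libraries are on log2(normalised reads + 1), where the list gave -0.37 without WT 3.

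Deviations of same-numbered MDA5 KO and WT libraries correlated at 0.26, -0.0043 and 0.15, and those of differently numbered ones at -0.25 to 0.10. These values do not settle whether the numbers pair the libraries. A replicate block over 5 libraries gave 68 calls, and over 6 with WT 3 it gave 4 calls and a list median of -0.034. With WT 3 put back, with and without the block, Samhd1 turned to 0.38, Ifi209 to 0.14, H2-T24 to 0.34 and Lyz2 to 0.82, and likewise with 12 libraries (0.39, 0.14, 0.34 and 0.82). Samhd1 ran from -0.091 (without WT 2) to 0.055 (without WT 1) when a library was left out, at 0.043 without MDA5 KO 2. Of the other named differences, 0 changed sign in any setting.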
